A study of Caenorhabditis elegans with 2 samples.

Results

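The ETS-7 regions of the 2 piRNA gene clusters of chromosome IV are described here, as mapped in whole early embryos of Caenorhabditis elegans by ChIP-seq, the sequencing of DNA recovered with an antibody against a protein crosslinked to it. A region of the authors' pooled list was a member when its summit, the base of highest enrichment in the region, lay at IV:4500000-7000000 (cluster 1) or IV:13500000-17200000 (cluster 2), on the ce11 build. The rule uses position alone, and it found 476 members among 1736 pooled regions on chromosome IV and 11626 in all. Of the members, 216 lay in cluster 1 and 260 in cluster 2. Their summits were divided into 106 that lay within 200 bp of an annotated piRNA gene and 370 that lay farther away. The other 1260 pooled regions of chromosome IV served for comparison.

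There was 1 group, with 2 biological replicates that the labels number 3 and 4. Both came from strain OP487, hermaphrodites in which the ETS-domain transcription factor ETS-7 carries a C-terminal GFP-FLAG tag. Early embryos were taken 3 hours after synchronization by egg bleaching, chromatin was sheared by sonication, and an antibody against GFP was used. In whole embryos, binding in few cells and weak binding in many cannot be told apart. Per the deposited descriptions, the pooled list and the replicate lists of 16227 and 15533 regions were called against a control at a relaxed threshold, and the authors' optimal list of 595 regions holds those that passed their test of reproducibility between replicates. The signal is the authors' value per region, with no stated scale, so signals are compared within a list, and with no second group no test between conditions was possible. The files give no read counts and the depth is therefore unknown.

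The piRNAs of this species, called 21U-RNAs, are small RNAs of the germline that guide the Argonaute PRG-1 to foreign transcripts such as those of transposons. Each is made from its own short gene, transcribed by RNA polymerase II as a small precursor, and most of these genes lie in the 2 clusters, between and within protein-coding genes. Many carry a motif with the core CTGTTTCA a short way upstream, and transcription needs the factors SNPC-4 and PRDE-1. ETS domains are known to bind sites with the core GGAA, and the longer form CCGGAA was searched here.

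The annotation held 15363 piRNA genes, 14714 of them on chromosome IV. Each gene is 21 bp long. Cluster 1 held 2816 of them and cluster 2 held 11388, which comes to 1126 and 3078 genes per Mb. CTGTTTCA lay within 60 bp upstream of 4944 of these 14204 genes (34.8%) on the gene's own strand, most often starting at position -46 (1680 genes). In 17 of the 106 members near a piRNA gene, the motif lay within 100 bp of the summit and upstream of a piRNA gene on that gene's strand. Only 3 of these 17 members were found in both replicates and 14 were not. The share found in both was 37.7% for the 106 members near a piRNA gene and 58.2% for all pooled regions. The member at 21ur-2705 counts among the 3, but its replicate values are shared with a stronger overlapping member. Of the 17, 14 had a pooled signal under 34.9, the median over all pooled regions. The signals of the 17 ran from 27.6 through a median of 30.5 to 39.6. The motif was 1 to 94 bp from their summits, with a median of 46 bp. The 4 piRNA genes given here show the unit of motif and gene: 21ur-270 is from the member of highest signal, and the other 3 are from the members found in both replicates, so as a set they are stronger and better replicated than the 17. Each sequence reads 5' to 3' on the gene's strand from the RefSeq WBcel235 assembly, which is ce11, and the capitals mark the motif and then the 21 bases of the piRNA gene.
21ur-270: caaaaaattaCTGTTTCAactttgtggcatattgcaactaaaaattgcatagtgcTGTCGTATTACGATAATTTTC
21ur-9336: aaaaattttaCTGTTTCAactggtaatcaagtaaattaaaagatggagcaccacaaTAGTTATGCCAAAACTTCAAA
21ur-2588: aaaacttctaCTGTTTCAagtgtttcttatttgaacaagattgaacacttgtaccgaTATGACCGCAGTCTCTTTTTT
21ur-2705: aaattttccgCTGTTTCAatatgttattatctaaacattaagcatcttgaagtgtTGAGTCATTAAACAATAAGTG

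The sequence of 21ur-270 is IV:5168936-5169011 on the minus strand, and that of 21ur-9336 is IV:5081726-5081802, also on the minus strand. The sequence of 21ur-2588 is IV:14228793-14228870 on the minus strand. The sequence of 21ur-2705 is IV:14888808-14888883 on the plus strand, inside eps-8, which encodes a regulator of actin. In the member at 21ur-270 the middle of the motif was 75 bp from the summit, and the pooled signal was 39.6. It was found in replicate 3 at 26.2 and not in replicate 4. The member at 21ur-9336 had a pooled signal of 37.7, with 17.1 in replicate 3 and 15.4 in replicate 4. At 21ur-2588 the pooled signal was 33.9, with replicate values of 20.9 and 14. At 21ur-2705, where the motif was 10 bp from the summit, the pooled signal was 28.8, with 20.3 and 13.5. This member overlaps a stronger one, IV:14888891-14889370, with a pooled signal of 36.8 and the same replicate values. The summit of that stronger member lay 38 bp from the tRNA gene WBGene00014594. To which of them the replicate values belong cannot be told. All 4 members at these piRNA genes were outside the optimal list.

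Members were sparser in the clusters than regions were elsewhere on chromosome IV. Within the clusters, they were sparsest close to piRNA genes, where the GC content was also lower, as given below. The pooled list had 76.8 summits per Mb in the clusters and 111.6 outside them. Within the clusters, sequence within 200 bp of a piRNA gene had 36.8 summits per Mb and the remaining sequence had 111.4. The mean density of the rest of the clusters was thus close to that outside them, but the rest was not uniform. It had 91.1 to 94.1 summits per Mb between 201 and 2000 bp from a piRNA gene, and 148 beyond 5000 bp. Whether the rest and the outside differ in single-copy sequence was not tested. In replicate 3 the densities were 63.9 near piRNA genes, 149 in the rest and 154 outside. In replicate 4 they were 58.4, 146 and 152. The lower density near piRNA genes was therefore seen in each replicate, with a ratio of near to rest of 0.330 in the pooled list, 0.428 in replicate 3 and 0.400 in replicate 4. Bases within 200 bp of a piRNA gene make up 46.4% of the clusters, and 22.3% of the member summits fell there (exact 95% interval 18.6 to 26.3, which covers the counting of regions only). The share was 27.1% of 680 regions in replicate 3 and 25.8% of 652 in replicate 4.

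**Figure D1:**
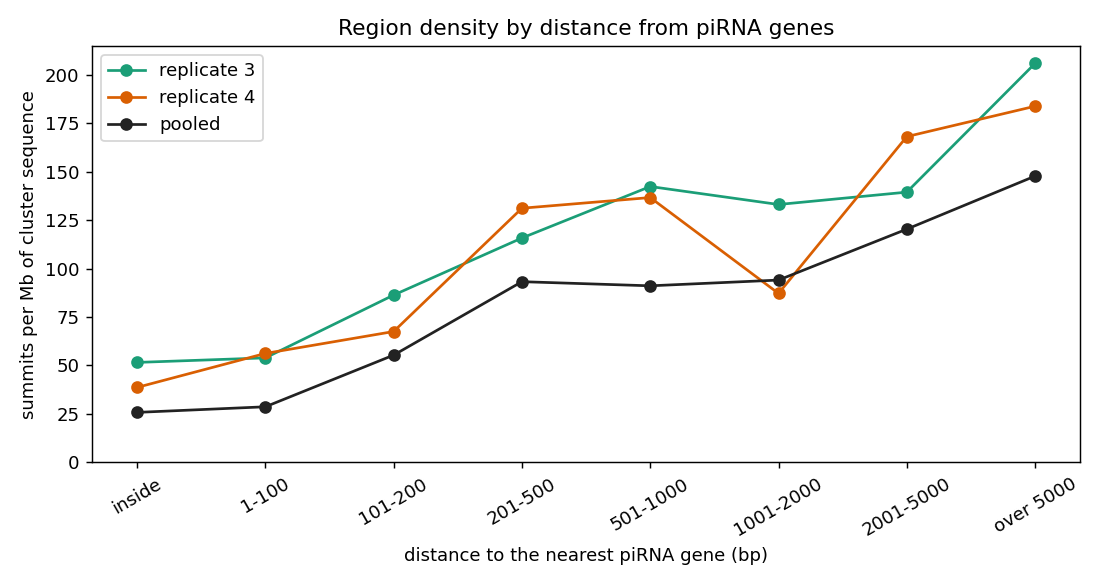
Summits per Mb of cluster sequence (vertical axis) by distance to the nearest piRNA gene in bp (horizontal axis), for the pooled list and for each replicate. The pooled density is 25.8 inside piRNA genes and 148 at over 5000 bp.

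Density was lowest at piRNA genes and highest far from them. Only 6 members had a summit inside a piRNA gene, which is 25.8 per Mb of such sequence. From 1 to 100 bp away there were 50 members, at 28.7 per Mb, and from 101 to 200 bp another 50, at 55.4 per Mb. Between 201 and 2000 bp the pooled density lay between 91.1 and 94.1 per Mb. It was 120 from 2001 to 5000 bp and 148 beyond 5000 bp, as the plot of density by distance shows. The replicates had the same order at its ends: 51.6 inside piRNA genes and 206 beyond 5000 bp in replicate 3, and 38.7 and 184 in replicate 4. They differed in the middle, where replicate 4 had 87.2 per Mb from 1001 to 2000 bp and replicate 3 had 133.

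Density was also lower where more piRNA genes were nearby. Cluster sequence with a single piRNA gene within 200 bp had 51.9 pooled summits per Mb. Sequence with 2 to 3 had 28.1, and sequence with 4 or more had 19.1. Replicate 3 gave 87.9, 48.6 and 40.8 over the same classes, and replicate 4 gave 72.0, 51.6 and 38.1. Both replicates had the same order. Neither these classes nor those of distance were divided by GC content, so whether their order holds at equal GC content was not tested. Of the 106 members near a piRNA gene, 62 (58.5%) had a single such gene within 200 bp, against 41.5% of the bases there. Counted by gene, 174 of the 14204 piRNA genes in the clusters (1.23%) had a pooled summit within 200 bp, 313 (2.20%) had a summit of replicate 3 and 304 (2.14%) had a summit of replicate 4.

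Both clusters showed the difference. In cluster 1, where 30.1% of the bases are within 200 bp of a piRNA gene, the pooled density was 54.5 per Mb near the genes (41 members) and 100.1 in the rest (175 members). Replicate 3 had 82.4 and 152 there, and replicate 4 had 83.8 and 145. In cluster 2, where piRNA genes are denser and 57.5% of the bases are near a gene, the pooled density was 30.6 near the genes (65 members) and 124 in the rest (195 members). Replicate 3 had 57.4 and 146 in cluster 2, and replicate 4 had 49.4 and 147. Whether the clusters differ from each other in this was not tested.

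**Figure D2:**
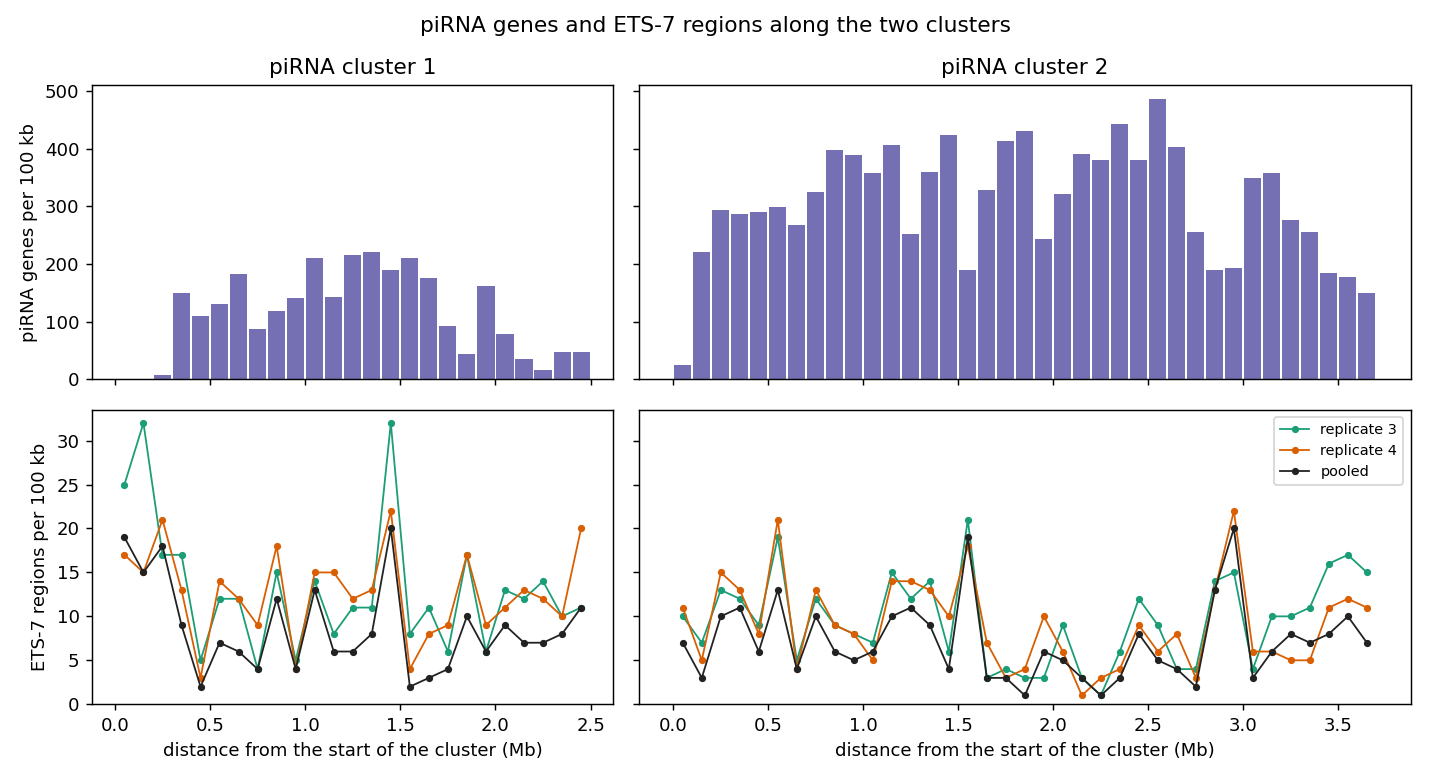
piRNA genes (upper panels, bars) and ETS-7 region summits (lower panels, lines) in bins of 100 kb against distance in Mb from the start of each cluster, for the pooled list and each replicate. In cluster 1, the bin with the most piRNA genes (220) holds 8 pooled regions and the bin with the fewest (0) holds 19. In cluster 2, the bin with the most (486) holds 5 and the bin with the fewest (24) holds 7.

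Along the clusters, piRNA genes and regions were counted in bins of 100 kb. In cluster 1, the bin with the most piRNA genes held 220 of them and 8 pooled regions, with 11 in replicate 3 and 13 in replicate 4, while its first bin, which has 0 piRNA genes, held 19 pooled regions, with 25 and 17. In cluster 2, the bin with the most held 486 and had 5 pooled regions, with 9 and 6, and the bin with the fewest held 24 and had 7, with 10 and 11. The longest stretch with no pooled summit was IV:16024413-16169005, 144.6 kb with 641 piRNA genes and 5 protein-coding genes. Replicate 3 had 4 regions in it, with a highest signal of 22.6, and replicate 4 had 6, with a highest signal of 18.6. The next in cluster 2, IV:15131421-15250847, was 119 kb long with 426 piRNA genes, and it held no region of replicate 3 and 2 of replicate 4. In cluster 1 the longest was IV:4885786-4988325, 102.5 kb with 129 piRNA genes and 27 protein-coding genes. Per Mb, the 2 in cluster 2 held 4433 and 3567 piRNA genes, against 3078 over that cluster. The 1 in cluster 1 held 1258, against 1126. The next by length varied. In cluster 1, IV:6648800-6735011 held 174 per Mb and IV:6022681-6097418 held 2408, and in cluster 2, IV:15364914-15471554 held 2691.

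The 4 longest stretches without piRNA genes in each cluster varied. The longest, IV:4500001-4630303 at the start of cluster 1 (130.3 kb up to the limit of the cluster), had 21 pooled summits, with 32 in replicate 3 and 18 in replicate 4. The next, IV:4630325-4729707 (99.4 kb), had 22, with 32 and 23. IV:16396609-16433317 in cluster 2 had 12 pooled summits in 36.7 kb, and 4 of them were optimal. IV:15005536-15051362 had 15 pooled summits in 45.8 kb, and none was optimal. By contrast, IV:6682653-6742696 in cluster 1 had 1 pooled summit in 60.04 kb. These 8 stretches ranged from 16.7 to 327 pooled summits per Mb.

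Base composition moved with the distance to piRNA genes. The mean GC content of bases near piRNA genes, over windows of 100 bp to each side, was 29.6%, against 35.9% in the rest of the clusters and 35.5% outside. The same windows at summits had a higher mean GC content than those over all bases of their class. It was 36.1% ± 7.5 (SD over 106 regions) near piRNA genes and 42.8% ± 8.1 (SD over 370 regions) in the rest. The cluster bases were therefore divided into 4 GC bands of equal size, with limits at 27.4, 31.8 and 37.8%. In the lowest band, which holds 37.6% of the bases near piRNA genes and 12% of the others, the pooled densities were 9.25 and 20.03 per Mb. In the next band they were 25.9 and 37.7, and in the band after it 48.2 and 70.4. In the highest band, which holds 9.32% of the bases near piRNA genes and 39.3% of the others, they were 160 and 206. The density near piRNA genes was lower than in the rest in all 12 combinations of band and list. The pooled list is made from both replicates, so its combinations are not separate from theirs. The outer bands are wide, from 2.49 to 27.4% and from 37.8 to 70.6%. GC content was not compared between near and rest within a band, so the bands do not set it equal. The ratio of near to rest within a band was 0.462, 0.686, 0.684 and 0.777 in the pooled list from the lowest GC band to the highest, against 0.330 over all bases. In replicate 3 it ranged from 0.566 to 0.901 and in replicate 4 from 0.534 to 0.865. The difference within bands was thus smaller than over all bases. The density also differed more between the lowest and the highest GC band than between near and rest within a band.

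**Figure D3:**
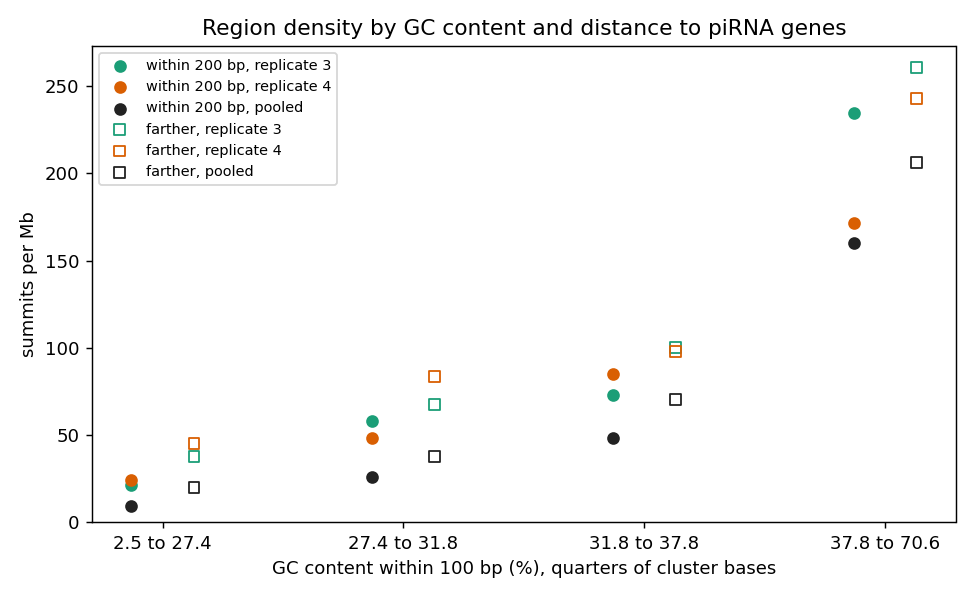
Summits per Mb (vertical axis) in 4 bands of GC content, in percent within 100 bp (horizontal axis), for cluster bases within 200 bp of a piRNA gene (filled) and farther away (open), by list. In the highest band the pooled densities are 160 and 206 per Mb, and in the lowest 9.25 and 20.03.

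Promoters and repeated sequence were measured in the same way. Promoters, which run from 1000 bp before to 200 bp after a protein-coding transcript's 5' end, cover 16% of the bases near piRNA genes and 26.4% of the rest. Within promoters the pooled density was 54.4 per Mb near piRNA genes and 176 in the rest, and outside promoters it was 33.5 and 88.3. In coding exons the densities were 54.7 and 103, and outside protein-coding genes they were 27.5 and 121. Both replicates had the lower value near piRNA genes in each of these places. Reads from repeated sequence are often discarded, so the share of 36-mers that occur once in the genome was measured: it was 97.4% near piRNA genes, 82.2% in the rest and 91.0% outside the clusters. Sequence near piRNA genes was thus the least repeated of the 3 classes. Where at least 90% of the 36-mers were single-copy, the ratio of near to rest was 0.273 in the pooled list, 0.346 in replicate 3 and 0.332 in replicate 4.

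The members near piRNA genes also carried lower signals. Their pooled signal ran from 27.6 through a median of 31.7 to 167, with the middle 50% between 28.9 and 37.6. The other members ran from 27.5 through a median of 35.3 to 140.6, with the middle 50% between 30.6 and 46.6. The ranges overlapped almost wholly, and the median outside the clusters was 34.4. In the list of replicate 3 the medians were 17.1 near piRNA genes, 19.1 in the rest and 19.1 outside. In the list of replicate 4 they were 15, 17.4 and 16.7. When the members were divided by the 4 bands of signal of all pooled regions, the share near a piRNA gene was 31.2% (39 of 125) in the weakest band, then 26.8%, 18.6%, and 11.3% (13 of 115) in the strongest. With the bands of each replicate's own list, it was 37.6% in the weakest and 12.9% in the strongest in replicate 3, and 35.5% and 11.8% in replicate 4.

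**Figure D4:**
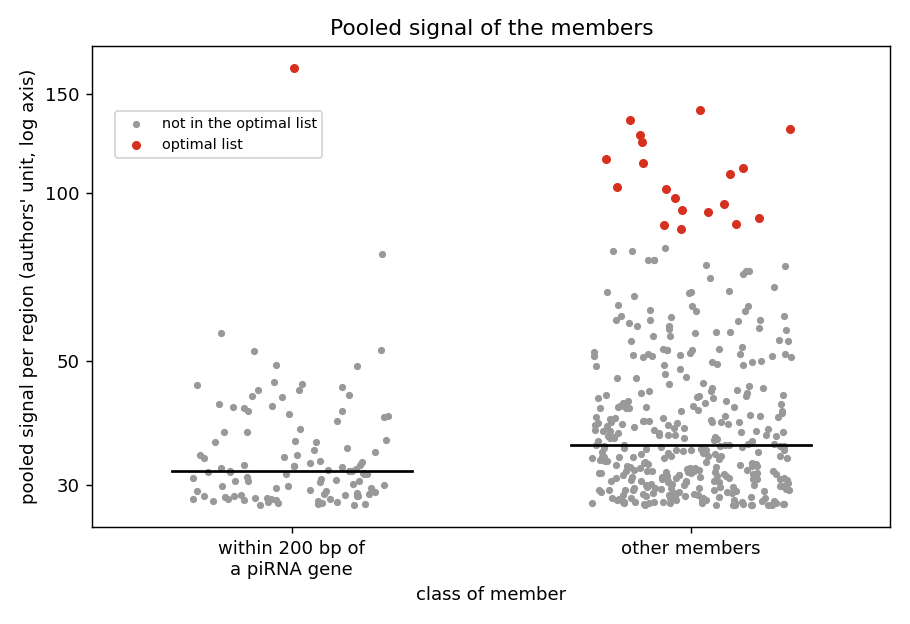
Pooled signal of each member (vertical axis, log scale, authors' unit) for the 106 members within 200 bp of a piRNA gene and the 370 others, with the median as a line and optimal regions in red. The medians are 31.7 and 35.3, and 1 member near a piRNA gene is optimal, against 19 of the others.

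The optimal list held 20 members, 1 of 106 near a piRNA gene and 19 of the 370 others. Over all pooled regions 5.12% were optimal. The share was 0.943% near piRNA genes (exact 95% interval 0.0239 to 5.14), 5.14% among the other members (3.12 to 7.90) and 4.52% outside the clusters (3.44 to 5.82). The interval near piRNA genes thus reaches the share over all pooled regions. Each replicate list was also cut to its own 595 regions of highest signal. In replicate 3, where these are 3.67% of the list, they held 1 of 184 regions near piRNA genes (0.543%) and 17 of the other 496 (3.43%). In replicate 4, where they are 3.83% of the list, they held 1 of 168 (0.595%) and 23 of 484 (4.75%).

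A smaller share of the members near piRNA genes was matched in both replicates. Of all pooled regions, 58.2% overlapped a region in both replicate lists. The share was 37.7% (40 of 106) for members near piRNA genes, 59.7% (221 of 370) for other members and 55.6% outside the clusters. Replicate 3 held 75 of the 106 and replicate 4 held 69, and 2 were in neither list. Where both replicates held the region, the median signals were 19.9 in replicate 3 and 17.6 in replicate 4 near piRNA genes, and 23.7 and 22.5 for the others. Signals of replicate 3 over those of replicate 4, as log2 ratios, had a median of 0.11 (SD 0.54 over 40 regions) near piRNA genes. In the others it was 0.05 (SD 0.51 over 221), and the SDs of the classes were close. The replicate lists share no stated scale, so these ratios are compared between classes only.

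**Figure D5:**
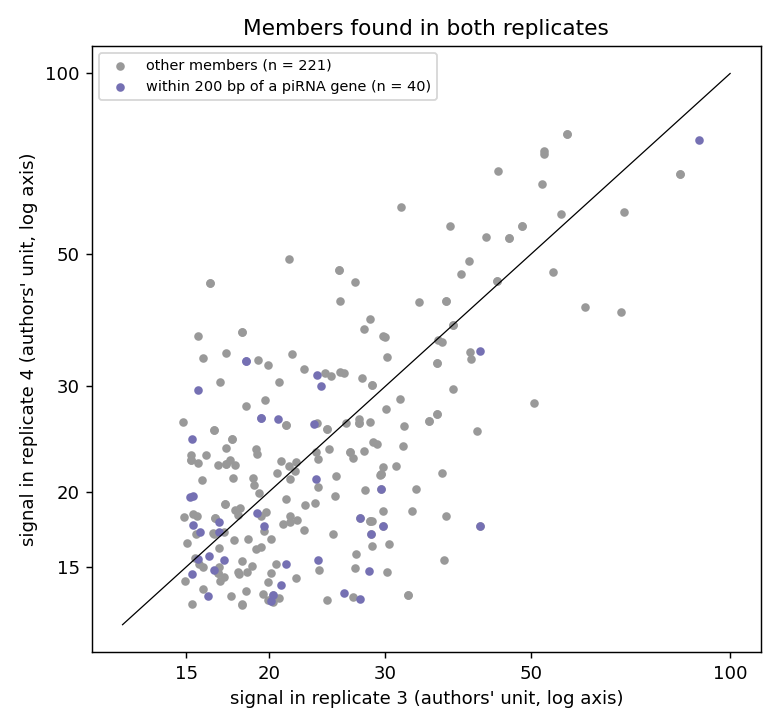
Signal in replicate 4 (vertical axis) against replicate 3 (horizontal axis), both on log scales in the authors' unit, for the 261 members matched in both replicate lists; the line marks equal values. Members near piRNA genes (40, violet) lie mostly at low signal, with 1 at 89.6 and 77.4.

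The strongest member was near a piRNA gene and was also inside a tRNA gene. It is IV:5966959-5967438, with its summit at 5967199, and its pooled signal of 167 ranked 101 among all pooled regions. Its signal was 89.6 in replicate 3 and 77.4 in replicate 4. The summit lay inside the tRNA gene WBGene00022903 and the overlapping noncoding RNA gene B0350.73, 110 bp downstream of the 5' end of the piRNA gene 21ur-5229, and 4930 bp from the nearest protein-coding 5' end, that of K02B2.6. tRNA genes are transcribed by RNA polymerase III from promoters inside the gene. From its position alone, binding at the tRNA gene and at the piRNA gene cannot be told apart. The sequence around this summit is given with those of 3 others: ranks 3 and 9 by signal, both optimal and with CCGGAA, and rank 62, the member near a piRNA gene with CCGGAA and the highest signal, which was chosen after its value was seen. Each is 121 bases of the plus strand, centred on the summit, and the capitals mark CCGGAA or its reverse complement TTCCGG.
rank 1 (IV:5967139-5967259): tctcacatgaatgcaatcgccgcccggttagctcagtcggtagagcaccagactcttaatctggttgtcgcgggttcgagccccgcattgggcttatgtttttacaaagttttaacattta
rank 3 (IV:4660531-4660651): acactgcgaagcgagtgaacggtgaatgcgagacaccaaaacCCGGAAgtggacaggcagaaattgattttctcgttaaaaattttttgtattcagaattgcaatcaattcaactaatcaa
rank 9 (IV:16403604-16403724): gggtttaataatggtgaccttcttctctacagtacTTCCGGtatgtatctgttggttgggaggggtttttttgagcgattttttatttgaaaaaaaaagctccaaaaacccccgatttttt
rank 62 (IV:17049526-17049646): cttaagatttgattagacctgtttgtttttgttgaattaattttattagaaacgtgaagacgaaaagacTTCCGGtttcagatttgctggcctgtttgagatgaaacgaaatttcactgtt

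Next by signal was IV:14033855-14034001, whose summit lay 7 bp from the microRNA gene cel-mir-52, of the mir-51 family, and 1200 bp from the nearest piRNA gene. Its pooled signal was 141, with 83.9 in replicate 3 and 67.8 in replicate 4. The member at rank 3, IV:4660351-4660830, had a pooled signal of 135, with 56.5 and 79.2. It lay in the shared promoter of F29B9.11 and jmjd-1.2, which encodes a histone demethylase of the JmjC class, 30267 bp from the nearest piRNA gene. IV:6756374-6756853 had 130, with 52.2 and 73.2, and lay 697 bp upstream of usp-4, which encodes a ubiquitin-specific protease. IV:6556630-6557109 had 127, with 69.1 and 58.6. Its summit was inside the tRNA gene WBGene00022959, 285 bp upstream of try-3, which encodes a trypsin-like protease. Of these 5 strongest members, ranks 1 and 5 lay in tRNA genes, rank 2 at a microRNA gene, and ranks 3 and 4 in promoters with no small RNA gene.

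Ranks 6 and 9 lay in intergenic sequence of the same stretch free of piRNA genes. IV:16407794-16408273 had a pooled signal of 123, with 52.2 in replicate 3 and 74.1 in replicate 4, and IV:16403424-16403903 had 111, with 51.8 and 65.3. Both held CCGGAA, and their summits were 11426 and 7056 bp from the piRNA gene 21ur-983. The tRNA genes WBGene00014596 and WBGene00014599 of that stretch had the members IV:16398208-16398687, at 102 with 53.8 and 46.6, and IV:16400897-16401376, at 92.9 with 46.3 and 53.0. A further tRNA gene, WBGene00014561, lay 73 bp from the summit of IV:16382118-16382597, which had 108, with 68.2 and 40.0. That member was in the promoter of Y7A9D.1 and 305 bp from the piRNA gene 21ur-3939.

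The other members among the 15 strongest lay at protein-coding genes. IV:5370864-5371343 had 115, with 55.5 in replicate 3 and 58.3 in replicate 4, in an intron and promoter of F41H10.3. IV:4749826-4750305 had 113, with 44.4 and 68.8, between Y17G9B.5 and rpl-20, which encodes a protein of the large ribosomal subunit. IV:14838095-14838574, in an intron of Y57G11C.22 and 316 bp from a piRNA gene, had 102, with 60.4 and 40.8. IV:16995368-16995847 had 97.9, with 37.6 and 55.7, in the promoter of rom-4, of the rhomboid protease family. IV:6887632-6888111 had 95.6, with 42.6 and 53.2, 76 bp upstream of T05A12.4, and held CCGGAA. All 20 optimal members were found in both replicates, which is what the optimal list selects for. The deposited value was higher in replicate 3 for 6 of them and in replicate 4 for 14. Over all pooled regions the median log2 ratio of replicate 3 over replicate 4 was 0.13. The replicate lists share no stated scale, so these counts do not rank the replicates. By place, 8 of the 20 had a small RNA gene other than a piRNA gene within 500 bp, 7 of them a tRNA gene. Another 8 lay in a promoter with no such gene, and 4 in neither. Over all pooled regions, 5.87% had such a small RNA gene within 500 bp. That share was not measured over all 595 optimal regions, so whether the 20 differ from these was not tested. The weakest optimal member had a signal of 86.2, and the strongest members outside that list had 79.6, 78.6 and 78.5. The member at 78.5 overlaps the optimal member at cel-mir-52 and has the same replicate values.

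Below the optimal list, the strongest members near piRNA genes were few and are named after their values were seen. IV:14496468-14496947, 185 bp from 21ur-14707, had a pooled signal of 77.6, with 41.8 in replicate 3 and 34.4 in replicate 4, and its summit lay 18 bp from the 5' end of tag-273. IV:17049346-17049825, whose sequence is given above as rank 62, had 56.0, with 23.7 and 31.3, and lay 103 bp upstream of 21ur-1316. IV:14224868-14225347 had 52.2, with 24.0 and 30.1, and its summit lay inside the tRNA gene WBGene00014305, 120 bp from 21ur-3160. The signal thus dropped from 167 to 77.6 and 56.0 over the 3 strongest members of the class.

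Promoters and coding exons held a smaller share of the members near piRNA genes than of the others. Introns held 43 of the 106 (40.6%), intergenic sequence 46 (43.4%), coding exons 14 (13.2%), UTRs 2 and pseudogenes 1. Of the 370 others, introns held 89 (24.1%), intergenic sequence 163 (44.1%), coding exons 82 (22.2%), UTRs 26 and pseudogenes 10. Promoters held 25 of the 106 (23.6%) and 154 of the 370 (41.6%), against 39.8% outside the clusters. In replicate 3 the promoter shares were 15.8% near piRNA genes and 36.3% in the rest, and in replicate 4 they were 20.2% and 37.4%. Coding exons held 15.2% and 23.6% in replicate 3, and 10.7% and 27.7% in replicate 4. The higher intron share of the pooled list was not seen in replicate 3, where introns held 27.7% near piRNA genes and 28.6% in the rest, while in replicate 4 they held 35.1% and 22.7%. Coding exons cover 8.89% of the bases near piRNA genes and 24.1% of the rest, so they and promoters are both scarcer near piRNA genes. The 59 summits near piRNA genes that lay within a protein-coding gene were spread over 45 genes, and 8 genes held more than 1. The forkhead transcription factor gene fkh-7 held 5, with pooled signals from 28.0 to 34.5. The gene jac-1, which encodes a p120 catenin, held 3, from 29.8 to 45.4, and unc-5, which encodes a netrin receptor, held 3, from 28.1 to 41.4.

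Relative to the nearest piRNA gene, 64 of the 106 summits (60.4%, exact 95% interval 50.4 to 69.7) lay downstream, 36 (34.0%, 25 to 43.8) upstream and 6 inside the gene. Of the bases within 200 bp of a piRNA gene, 45.1% are downstream, 46.8% upstream and 8.08% inside. In the lists of the replicates the difference was smaller: 52.2% downstream and 41.3% upstream in replicate 3, and 55.4% and 39.3% in replicate 4. CTGTTTCA, searched on both strands within 100 bp of the summit, was found at 20 of the 106 members near piRNA genes (18.9%, 11.9 to 27.6) and at 3 of the 370 others (0.811%). Over all pooled regions the share was 1.02%. Of all windows of the same length centred on bases near piRNA genes, 27.5% held the motif, and of those in the rest of the clusters 3.35% did. In replicate 3 the motif was at 19.0% of the summits near piRNA genes and 1.21% of those in the rest, and in replicate 4 at 25% and 1.24%. These shares are under those of the windows in both classes, but the pooled interval near piRNA genes, 11.9 to 27.6, reaches the window share of 27.5%. The windows were not matched for GC content.

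CCGGAA was found within 100 bp of the summit, on either strand, at 22 of the 106 members near piRNA genes (20.8%, exact 95% interval 13.5 to 29.7), at 42 of the 370 others (11.4%, 8.30 to 15.03) and at 185 of the 1260 regions outside the clusters (14.7%). Over all pooled regions the share was 14.1%. Of all windows of the same length, 4.47% near piRNA genes, 6.90% in the rest of the clusters and 7.64% outside held the hexamer. In replicate 3 the hexamer was at 9.78% of the summits near piRNA genes, 9.07% of those in the rest and 10.9% of those outside, and in replicate 4 at 17.3%, 11.8% and 13.7%. These shares are above those of the windows in each of the 3 classes and each list. The windows were not matched for GC content, in which the pooled summits were richer. Mean GC was 36.1% at summits and 29.6% in windows near piRNA genes, 42.8% and 35.9% in the rest, and 41.4% and 35.5% outside. Whether the higher shares go with GC content was not tested. The higher share near piRNA genes than in the rest was small in replicate 3. A match is a description of the letters and not evidence of binding. The hexamer was present at 4 of the 20 optimal members, at ranks 3, 6, 9 and 14.

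Other small RNA genes lay within 500 bp of 47 members: tRNA genes at 27, snoRNA genes at 11, microRNA genes at 6 and snRNA genes at 3. These were 6 of the 106 members near piRNA genes (5.66%) and 41 of the 370 others (11.1%). The share was 4.52% outside the clusters and 5.87% over all pooled regions. In replicate 3 the shares near piRNA genes, in the rest and outside were 3.26%, 7.46% and 3.62%. In replicate 4 they were 1.19%, 8.26% and 3.68%. The share of bases within 500 bp of such genes was not measured, so whether these shares depart from it was not tested. Without all regions near such genes, none of the members near piRNA genes was optimal, since the only one lay in a tRNA gene.

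The genes whose products make and use piRNAs were also examined, wherever they lie in the genome. Of 49 listed genes, 46 were matched in the annotation, and 10 of these (21.7%) had a pooled summit in the promoter, against 21.6% of all 19985 protein-coding genes. An optimal summit was present at 1 of the 46, against 2.07% of all protein-coding genes. Both shares were close to the background. That gene was nrde-2, which acts in nuclear RNA interference: the region II:10248475-10248615 had a pooled signal of 155, with 69.7 in replicate 3 and 83.8 in replicate 4, but its summit was nearer to the 5' end of atad-3, 419 bp away. Among factors of piRNA transcription 3 of 13 had a pooled summit, the strongest at tofu-5, which encodes a subunit of the complex that holds PRDE-1 and SNPC-4, with 38.5 (20.1 and 18.2 in the replicates). No pooled summit was in the promoter of snpc-4 or prde-1.

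Among processing factors 3 of 12 had a pooled summit. The strongest was at tofu-1, which encodes a subunit of the nuclease that cleaves the 5' end of the precursor, with 71.7 (32.1 in replicate 3 and 37.2 in replicate 4), and its summit was 62 bp from the 5' end of ruvb-1, the nearest gene. None of the 5 Argonautes, PRG-1 included, had a pooled summit in the promoter. Among the genes of secondary small RNAs and germ granules 4 of 16 did. Besides nrde-2 these were nrde-4, also of nuclear RNA interference, at IV:7654337-7654816 with 75.7 (43.4 and 32.7), set-25, which encodes a histone H3 lysine 9 methyltransferase, with 59.8 (27.5 and 31.0), and mut-2, which encodes a nucleotidyltransferase, with 46.3 (26.3 and 21.1). The summit at mut-2 was 4 bp from the 5' end of the neighbouring gene K04F10.3.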

How the data were processed

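ETS-7-GFP ChIP-seq of whole early embryos gave 1 group of 2 biological replicates. Per the deposited descriptions, the authors called regions in narrowPeak format against a control, per replicate and on pooled alignments, and derived the optimal list from these. The signal per region is the value the authors deposited; its scale, the aligner, the caller and versions, and the depth, were not given in the sources used here. The controls themselves were not analysed here.

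Coordinates are 1-based on ce11 (WBcel235), with Ensembl 115 genes and RefSeq sequence. Each base of chromosome IV was put in a class by its distance to a piRNA gene, and summits were counted per Mb of each class. A pooled region was matched to a replicate region by an overlap of at least 1 bp, and the highest signal was taken. Single-copy sequence was measured with 36-mers, an assumed length since none is stated for the reads. Named members are the 15 of highest pooled signal, which include the 5 highest of each cluster and each optimal member near a piRNA gene, and the listed pathway genes with an optimal summit in the promoter or, among the others, the 5 highest signals. The members and lists were chosen with earlier results of these data known. Intervals are exact (Clopper-Pearson) 95% intervals and cover the counting of regions only, since neighbouring regions are not replicates. No test between groups was possible with 1 group, so values from the replicate lists stand beside the pooled ones for the densities, signals and shares by class. Distance, cluster limits, merging of regions, signal, windows, builds and leaving out a replicate were varied. Calculations were tested on simulated data and run with pandas 2.3.3, NumPy 2.4.6, matplotlib 3.10.9 and SciPy 1.17.1 under Python 3.11.15.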

Additional observations from a re-analysis of the deposited data

How the results depend on the processing

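No paired analysis was possible because the samples form 1 group. The comparison of density near piRNA genes with the rest of the clusters, and its settings, were added after the data were seen. Its ratio of 0.330 was 0.285 at a distance of 100 bp, 0.430 at 500 bp, 0.202 for the upper 50% of regions by signal, 0.351 without regions near other small RNA genes, 0.379 outside promoters, 0.777 in the highest GC band and 0.273 in single-copy sequence, and 0.400 to 0.428 in the lists of single replicates; it stayed under 1 in each of these. The cluster density over that outside, 0.688, was 0.668 with clusters shortened by 100 kb at each end, 0.650 without regions near other small RNA genes and 0.694 to 0.712 in single replicates; with the ce10 lists it was 0.688. The share of summits within the distance, 22.3%, was 1.26% at 0 bp, 11.8% at 100 bp, 41.4% at 500 bp, 14.9% in the upper 50% by signal (228 members) and 25.8 to 27.1% in single replicates. The optimal share near piRNA genes, 0.943%, was 0% at 0 bp and without regions near other small RNA genes, and outside the clusters, 4.52%, it was 2.99% without those regions. Single replicates have no optimal list; outside the clusters, 3.15 to 3.62% of their regions were among their 595 of highest signal, which are 3.67% and 3.83% of their longer lists, against 5.12% for the optimal list. The log2 difference of median signal between near and rest was -0.15, and -0.16 to -0.22 in single replicates. That between members and outside was -0.00, smaller than the spread of the replicate lists, with 0.049 in the upper 50% by signal and -0.045 to 0.0041 in single replicates. CTGTTTCA near piRNA genes, 18.9%, was 33.3% at 0 bp, 32.1% at 100 bp and 10.7% at 500 bp, and 11.3% and 32.1% with windows of 50 and 200 bp. In the rest, 0.811%, it was 4.47% at 0 bp and 2.70% with 200 bp. CCGGAA near piRNA genes, 20.8%, was 33.3% at 0 bp and 13.2% with 50 bp, and in the rest, 11.4%, it was 6.49% and 19.7% with 50 and 200 bp. With promoters of 500 bp upstream to 100 bp downstream no pathway gene kept an optimal region. Shares at 0 bp rest on 6 members. The depth is unknown, and a region missing from a list is not shown to be unbound.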

Other observations

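piRNA genes also lie outside the clusters, 510 on the rest of chromosome IV and 649 on other chromosomes. A pooled summit lay within 200 bp of 10 of the 510 (1.96%) and of 26 of the 649 (4.01%), against 1.23% of those in the clusters. On the other nuclear chromosomes, sequence near piRNA genes had 93.4 pooled summits per Mb and the remaining sequence 119. In replicate 3 these were 142 and 167, and in replicate 4 they were 112 and 159. The 25 pooled regions near these scattered piRNA genes had a median signal of 36.2, against 34.9 for the others on those chromosomes, and 1 of the 25 was optimal. The 11 on chromosome IV outside the clusters had a median of 38.8, against 34.4, and none was optimal. Whether these differences depart from those in the clusters was not tested.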
